A study of Mus musculus with 24 samples.

Results

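Recurrent mouse thyroid tumours were compared with anaplastic thyroid cancers (ATC) through the 9 arrays whose tissue label is a recurrent tumour and the 5 arrays whose label is ATC, 14 of the 24 arrays in the series. Every one of these arrays has a thyroid tumour as its source, and the labels used here give neither genotype, treatment, time, age nor sex for either group. They also do not say whether tumours came from separate animals, so p-values reflect only how far these arrays spread, which may be technical. The series concerns Met amplification and Hgf overexpression in mouse ATC that resists the loss of BRAF activity, and its design text speaks of glands taken from mouse models at baseline. RNA was read on Affymetrix Mouse430A_2 arrays as log2 values, and 12393 genes were compared, each read by its brightest probe set on average.

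ATC is the undifferentiated form of thyroid cancer, which has largely lost the gene programme of the hormone-making follicular cell. BRAF is a kinase of the MAPK cascade, which passes growth signals from receptors to ERK, and ERK in turn raises the transcription of its own brakes, such as the phosphatase gene Dusp6 and the Sprouty genes. MET is the receptor of hepatocyte growth factor, encoded by Hgf, and feeds the same cascade. A tumour sample holds cancer cells, connective tissue, immune cells and parts of neighbouring organs, and in bulk RNA fewer cells of a type cannot be told apart from less RNA per cell.

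The recurrent arrays differed among themselves more than the ATC arrays did. The mean correlation of an array with its own group was 0.856 to 0.926 among recurrent arrays and 0.961 to 0.969 among ATC arrays, and 88.5% of genes had the larger SD in the recurrent group. Titles fall into a series with the letters JK (recurrent arrays 1 to 3, ATC arrays 1 and 2) and one with bare numbers (recurrent 4 to 9, ATC 3 to 5), whose meaning the labels do not give. The signal difference between 3' and 5' Gapdh probes, a measure of RNA integrity and labelling, followed these titles. In the JK titles it was 0.36 to 1.07 on recurrent arrays and 0.82 to 0.96 on ATC arrays, and in the bare-number titles it was -0.02 to 0.17 on recurrent arrays and 0.06 to 0.15 on ATC arrays. Tg, the thyroglobulin gene that defines the follicular cell, was high on recurrent 4 (14.18) and recurrent 1 (11.31) and on ATC 4 (13.48). The remaining arrays read 4.61 to 5.86 in the recurrent group and 4.46 to 5.98 in ATC, so the defining thyroid gene was low on most arrays of both groups. The 16 measured thyroid differentiation genes averaged 5.43 to 7.73 on recurrent arrays and 5.58 to 7.28 on ATC arrays. Limma called 0 of them (2 at an unadjusted p under 0.05, beside 1332 of all 12393 genes).

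Braf was read first, since it is the gene whose product the study inactivates. Its level on recurrent arrays 1 to 9 was 5.70, 11.14, 7.14, 5.62, 5.93, 5.91, 6.57, 5.76 and 6.91 (log2), and on ATC arrays 1 to 5 it was 11.98, 11.62, 10.83, 10.29 and 11.84. Thus 8 recurrent arrays lay below all ATC arrays, and the array labelled recurrent 2 lay among the ATC arrays. The difference of the means was -4.57 (SE 0.76, limma adjusted p = 0.0107). An exact permutation test of the 14 arrays, two-sided, gave p = 0.0015, or 0.0045 once adjusted for Braf, Met and Hgf. Without recurrent 2 the Braf difference was -5.12 (limma adjusted p = 6.48e-06). That array was singled out by its Braf level, so the smaller p-value is no further support for the difference. Within the bare-number titles the Braf difference was -4.87 (limma adjusted p = 0.00134), and within the JK titles, which hold recurrent 2, it was -3.81 and not called (limma adjusted p = 0.678). Over the remaining alternatives the limma adjusted p for Braf ran from 1e-05 to 0.0457. The labels do not tell if this Braf probe set also detects a transgene or altered allele. Since Braf on recurrent 2 lay among the ATC arrays, "the array labelled recurrent 2" is meant wherever recurrent 2 is named. The labels state no Braf level for a recurrent tumour, and whether this array is mislabelled was not tested. The counts of calls over all genes and over the lists described are given with and without it.

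Met and Hgf were high on a few recurrent arrays and were not called as a group. Met, the receptor gene, read 8.10, 5.44, 6.09, 6.21, 5.87, 7.15, 4.73, 8.06 and 5.82 on recurrent arrays 1 to 9, against 5.48, 5.10, 6.15, 5.44 and 5.90 on ATC arrays 1 to 5. Recurrent 1 and 8 stood 1.95 and 1.92 above the highest ATC array, recurrent 6 stood 1.00 above it, and recurrent 7 lay below all ATC arrays. The mean difference in Met was 0.77 (SE 0.50, limma adjusted p = 0.659, two-sided exact permutation p = 0.187). Hgf, the ligand gene, read 6.41, 6.38, 5.57, 6.73, 5.75, 5.41, 5.37, 8.08 and 5.88 on recurrent arrays 1 to 9, against 5.47, 5.45, 5.25, 5.75 and 5.39 on ATC arrays 1 to 5. Recurrent 8 was the highest for Hgf and was also high for Met, and 4 further recurrent arrays exceeded the ATC range of Hgf by smaller steps. The mean difference in Hgf was 0.72 (SE 0.37, limma adjusted p = 0.527, two-sided exact permutation p = 0.0804).

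**Figure D1:**
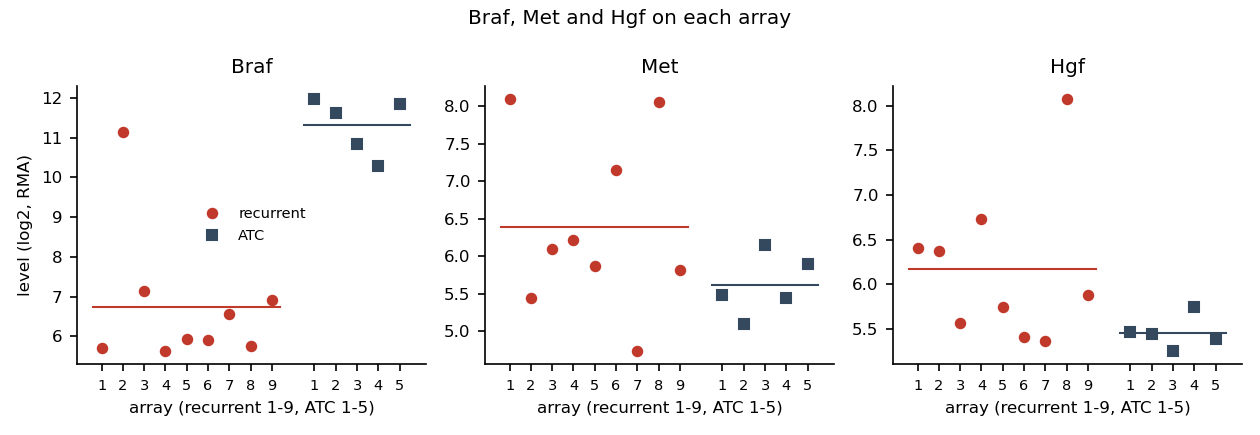
Levels of Braf, Met and Hgf (log2, y axis) on each array (x axis), with recurrent arrays as red circles on the left, ATC arrays as dark squares on the right and the group mean as a line. Braf is low on 8 of 9 recurrent arrays and at 11.14 on recurrent 2, while Met is highest on recurrent 1 and 8 and Hgf on recurrent 8.

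Of the 15 measured genes of the Hgf and Met system, 2 were called lower (13.3%) and 0 higher, and 4 were called lower without recurrent 2. Across all genes 0.742% were called lower, and 1.29% without recurrent 2. Hgfac encodes a protease that activates the Hgf protein, and Plau encodes urokinase, a protease that also can. Hgfac had 4.20, 4.64 and 5.20 on recurrent arrays as lowest, median and highest, against 9.39, 7.13, 7.67, 5.73 and 7.50 on ATC arrays 1 to 5. All recurrent arrays were low and close together, while ATC arrays spread widely above them (difference -2.81, SE 0.42, limma adjusted p = 0.00577). Plau had 5.15, 6.41 and 9.14 on recurrent arrays, against 8.96 to 10.87 on the 5 ATC arrays. Only recurrent 2 reached the ATC range of Plau (difference -3.01, SE 0.62, limma adjusted p = 0.0361), and a further Plau probe set gave -1.62.

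Across all genes, limma called 99 of 12393 (0.799%) at an adjusted p under 0.05, and 92 of these were lower in recurrent tumours (0.742%) while 7 were higher (0.0565%). At an unadjusted p under 0.05 there were 1332 of the 12393, with 810 lower and 522 higher. The median difference over all genes was 0.05 and 42.9% of genes had a difference below 0, values that quantile normalization holds near balance. The count of calls depended on single arrays. It was 180 without recurrent 2, with 160 lower (1.29%) and 20 higher (0.161%), and 59 without recurrent 1, and it was 60, 49 and 38 without ATC 1, 3 and 5. Within the bare-number titles alone limma called 18 genes, 17 of them among the 99. Within the JK titles alone, with 3 recurrent and 2 ATC arrays, limma called 0 (913 at an unadjusted p under 0.05). A test of whether the difference itself changed with the title series called 0 of 12393 genes (401 at an unadjusted p under 0.05, smallest limma adjusted p = 0.942).

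Changes that all 9 recurrent arrays carried were separated from those of a few arrays by counting the arrays beyond the ATC range. In 85 genes (0.686%) all 9 recurrent arrays lay below all 5 ATC arrays, and in 25 genes (0.202%) all 9 lay above. Of the 92 genes called lower, 56 were of this shared kind, 32 had 8 of 9 arrays below the ATC range and 4 had 7 or fewer. Of the 7 called higher, 5 were shared. The array that stayed out in those 32 genes was recurrent 2 in 9 of them, recurrent 3 in 6, recurrent 9 in 6, recurrent 7 in 5 and recurrent 6 in 2. Among all 235 genes with 8 of 9 arrays below the ATC range, called or not, it was recurrent 2 in 69 and recurrent 3 in 42. It was recurrent 6 in 34, recurrent 9 in 24 and recurrent 7 in 24. The shares of recurrent 2 and 3 were near those in the 32 genes, while that of recurrent 6 was larger and those of recurrent 9 and 7 were smaller. Without recurrent 2, the shared genes numbered 154 lower and 60 higher, and without ATC 4 they numbered 187 lower and 84 higher. The higher count alone was also over 1.5 times as large without recurrent 3 (51), recurrent 5 (48), recurrent 6 (38), ATC 1 (51), ATC 2 (39) or ATC 3 (38).

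In 10 of the shared genes (0.0807%) a gap of at least 1 on the log2 scale separated the highest recurrent array from the lowest ATC array, and all 10 were lower in recurrent tumours. They are Mcpt8, Npy, Gzme, Adamdec1, Klrc1, Abcb1a, Aldh1a2, Has3, Cldn2 and Igfbp3. Their products have unlike roles, among them granule proteases, a neuropeptide, a receptor of NK and T cells, a drug efflux pump, an enzyme that makes retinoic acid, a hyaluronan synthase, a tight junction protein and a binder of insulin-like growth factors. In the opposite direction the widest gap was 0.17, for Suclg2.

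The widest gap, 3.75, was that of Mcpt8, a serine protease of basophil granules. Mcpt8 read 5.34, 6.93, 5.85, 4.79, 4.60, 4.63, 4.59, 4.57 and 6.51 on recurrent arrays 1 to 9, against 10.68, 11.17, 12.12, 11.08 and 10.77 on ATC arrays 1 to 5. Even the highest recurrent array, recurrent 2, was far below every ATC array (limma adjusted p = 1.34e-05). Npy, which encodes neuropeptide Y, read 7.78, 7.88, 8.92, 7.67, 6.42, 6.49, 5.99, 6.11 and 5.92 on recurrent arrays 1 to 9, against 12.89, 13.01, 14.05, 12.23 and 12.51 on ATC arrays 1 to 5. Recurrent 1 to 4 were the higher recurrent arrays, still 3.31 or more below ATC (limma adjusted p = 4.52e-05). Both genes were also called within the bare-number titles alone, Mcpt8 at -6.37 and Npy at -6.50, each with limma adjusted p = 0.00134.

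Klrc1 encodes a subunit of an inhibitory receptor that binds a non-classical MHC molecule. Its level was 3.20, 3.68 and 4.20 (lowest, median and highest) on recurrent arrays, against 8.21, 8.01, 9.20, 5.94 and 9.70 on ATC arrays 1 to 5. The recurrent arrays lay close together, and ATC 4 was the lowest ATC array (difference -4.61, SE 0.46, limma adjusted p = 0.000181). A further Klrc1 probe set gave -1.88. Has3, which makes the matrix sugar hyaluronan, had 4.37, 4.92 and 6.06 on recurrent arrays, against 8.56, 8.02, 8.76, 7.50 and 8.94 on ATC arrays. No recurrent array came within 1 unit of the ATC range (difference -3.28, SE 0.33, limma adjusted p = 0.000181).

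Igfbp3, a secreted binder of insulin-like growth factors, had 10.13, 10.95 and 12.34 on recurrent arrays as lowest, median and highest, against 13.49, 13.52, 13.69, 13.64 and 13.45 on ATC arrays 1 to 5. The ATC arrays were nearly equal and the recurrent arrays spread below them (difference -2.33, SE 0.34, limma adjusted p = 0.00556). Abcb1a, a multidrug efflux pump known from endothelium and gut, had 5.41, 8.58 and 9.32 on recurrent arrays, against 10.98, 11.43, 11.46, 11.59 and 11.46 on ATC arrays. Recurrent 7 was the lowest for Abcb1a (difference -3.50, SE 0.57, limma adjusted p = 0.00885), and a further probe set gave -3.88. Cldn2, a claudin that forms cation pores between epithelial cells, had 5.04, 7.32 and 8.78 on recurrent arrays, against 9.99, 10.46, 11.71, 10.54 and 10.63 on ATC arrays. Recurrent 4 was the highest recurrent array for Cldn2 (difference -3.82, SE 0.60, limma adjusted p = 0.00738), and a further probe set gave -0.76.

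**Figure D2:**
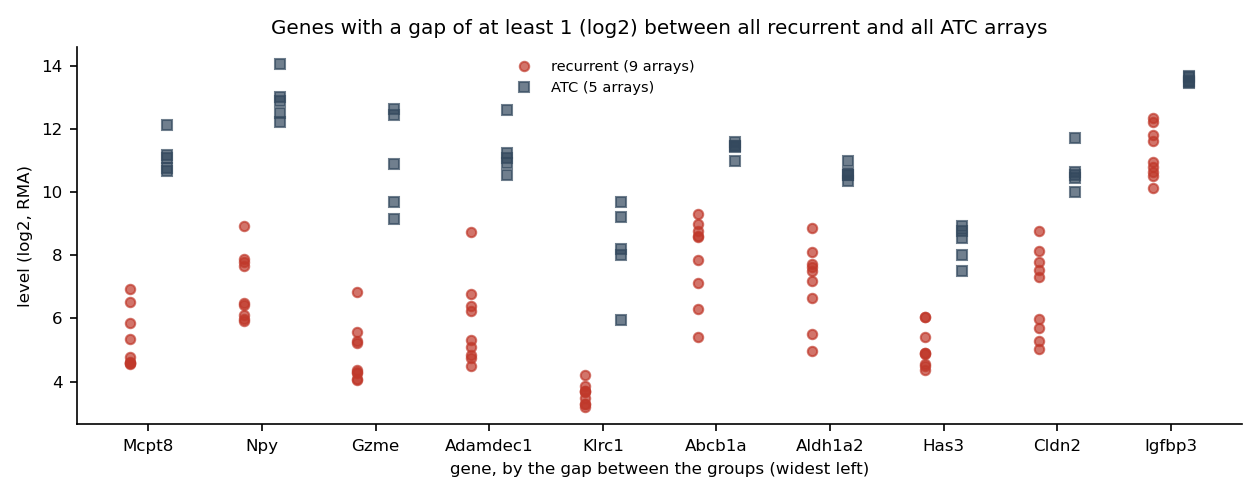
Levels (log2, y axis) of the 10 genes with a gap of at least 1 between the groups (x axis, widest gap left), with the 9 recurrent arrays as red circles and, to their right, the 5 ATC arrays as dark squares. In each gene every recurrent array lies below every ATC array, with a gap of 3.75 in Mcpt8 and 1.11 in Igfbp3.

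Granule proteases are enzymes stored in the granules of mast cells, basophils, NK cells and cytotoxic T cells. Their list also holds Adamdec1, a metalloprotease known from macrophages and dendritic cells, which is not a granule enzyme of these cells. Of its 21 measured genes, 6 were called lower (28.6%, against 0.742% of all genes) and 0 higher, and 7 were called lower without recurrent 2. Their median difference was -0.28, beside 0.05 over all genes. The 6 were Adamdec1 and the 5 granule proteases Gzmc, Gzmd, Gzme, Mcpt1 and Mcpt8. The list mean was 5.25 to 6.50 on recurrent arrays and 7.05 to 8.02 on ATC arrays, so all 9 recurrent arrays lay below all ATC arrays. Of the mast cell genes in the list, Cpa3 had a mean of 7.94 in recurrent tumours and 7.80 in ATC, and Cma1 had 7.24 in recurrent tumours and 6.75 in ATC, and neither was called. Gzma had 4.44 in recurrent tumours and 4.34 in ATC, and Prf1, the gene of pore-forming perforin, had 5.89 in recurrent tumours and 5.82 in ATC, and neither of these was called. A separate list of 19 measured T and NK cell genes had a median difference of 0.10, with 7 below 0, beside 42.9% of all genes. Limma called 0 of the 19, with or without recurrent 2 (0 at an unadjusted p under 0.05, beside 1332 of all 12393 genes). Their mean was 5.24 to 6.47 on recurrent arrays and 5.48 to 5.85 on ATC arrays.

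Gzmc, Gzmd and Gzme are granzyme genes that lie close together on chromosome 14. Their promoters, 250 bases before to 50 after the start that RefSeq gives on the minus strand of GRCm38.p6, are shown since all 3 genes fell and their sequences are near copies. The windows are chr14:56234608-56234907 for Gzmc, chr14:56132544-56132843 for Gzmd and chr14:56120576-56120875 for Gzme, and capitals mark a run of 25 bases that all 3 share.
Gzmc: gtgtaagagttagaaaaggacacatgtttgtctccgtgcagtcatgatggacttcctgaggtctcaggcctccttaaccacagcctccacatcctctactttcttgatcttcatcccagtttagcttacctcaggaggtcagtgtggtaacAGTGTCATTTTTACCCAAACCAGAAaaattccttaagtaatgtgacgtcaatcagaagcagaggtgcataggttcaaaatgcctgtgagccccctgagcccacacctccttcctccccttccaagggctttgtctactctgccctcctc
Gzmd: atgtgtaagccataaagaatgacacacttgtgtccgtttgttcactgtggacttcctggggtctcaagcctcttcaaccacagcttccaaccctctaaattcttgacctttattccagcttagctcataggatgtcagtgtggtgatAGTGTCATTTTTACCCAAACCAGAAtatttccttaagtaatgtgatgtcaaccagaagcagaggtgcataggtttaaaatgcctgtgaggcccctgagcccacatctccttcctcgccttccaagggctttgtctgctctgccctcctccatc
Gzme: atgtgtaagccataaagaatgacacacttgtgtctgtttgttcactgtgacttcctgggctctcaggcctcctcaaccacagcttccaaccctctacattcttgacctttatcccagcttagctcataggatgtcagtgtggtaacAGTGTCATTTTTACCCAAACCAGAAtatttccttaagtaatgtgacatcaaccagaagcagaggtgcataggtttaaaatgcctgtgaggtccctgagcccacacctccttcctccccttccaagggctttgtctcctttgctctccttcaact
The promoters of Gzmd and Gzme were identical at 281 of 299 aligned bases (94.0%), those of Gzmc and Gzme at 258 of 292 (88.4%) and those of Gzmc and Gzmd at 256 of 293 (87.4%). The Gzmd and Gzme probe sets are of the kind that may read related transcripts, so the share of each relative in these values is uncertain.

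Gzme read 5.56, 5.21, 5.28, 4.08, 4.29, 4.36, 4.30, 4.05 and 6.85 on recurrent arrays 1 to 9, against 9.15, 9.70, 12.44, 12.63 and 10.89 on ATC arrays 1 to 5. Gzmd read 3.78, 3.24, 3.81, 2.94, 2.87, 3.10, 3.07, 2.96 and 5.94 on recurrent arrays, against 6.51, 6.77, 9.58, 11.86 and 9.02 on ATC arrays. For both genes recurrent 9 was the highest recurrent array and the JK arrays ATC 1 and 2 were the lowest of ATC. The difference in Gzmd was -3.03 within the JK titles and -6.67 within the bare-number titles, and in Gzme it was -4.08 within the JK titles and -7.33 within the bare-number titles. Gzmc, named after its values were seen, read 4.35, 3.95, 5.66, 3.73, 3.53, 3.78, 3.70, 3.92 and 4.26 on recurrent arrays, against 5.76, 5.79, 7.13, 9.80 and 6.19 on ATC arrays. Here recurrent 3 came within 0.10 of ATC 1 (difference -2.83, SE 0.57, limma adjusted p = 0.0322).

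Adamdec1 had 4.51, 5.31 and 8.73 on recurrent arrays as lowest, median and highest, against 11.08, 10.91, 11.23, 12.60 and 10.54 on ATC arrays 1 to 5. Recurrent 5 was the highest recurrent array and still 1.81 below ATC (SE of the difference 0.61, limma adjusted p = 0.000667). Mcpt1, a mucosal mast cell protease named after its values were seen, read 4.35, 8.93, 4.33, 4.32, 4.64, 4.43, 4.44, 4.29 and 4.26 on recurrent arrays 1 to 9, against 7.21, 8.56, 8.83, 10.11 and 8.28 on ATC arrays. Recurrent 2 lay among ATC and the other 8 recurrent arrays lay between 4.26 and 4.64. The Mcpt1 difference was -3.71 (limma adjusted p = 0.0241), and without recurrent 2 it was -4.22 (limma adjusted p = 4.35e-05).

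Retinoic acid is a vitamin A derivative that steers differentiation. Of 16 measured retinoid genes, 3 were called lower (18.8%, against 0.742% of all genes) and 0 higher, with a median difference of -0.17. Without recurrent 2, 3 were called lower, against 1.29% of all genes. Aldh1a2 and Aldh1a3 make retinoic acid, and Cyp26a1 degrades it. Aldh1a3 read 5.60, 6.37, 4.51, 10.75, 8.31, 5.99, 7.12, 6.22 and 5.99 on recurrent arrays 1 to 9, against 11.25, 12.01, 12.09, 11.12 and 12.86 on ATC arrays 1 to 5. Recurrent 4 came within 0.37 of the ATC range and the rest were lower (SE of the difference 0.79, limma adjusted p = 0.00693). Aldh1a2 had 4.98, 7.49 and 8.87 on recurrent arrays as lowest, median and highest, against 10.54, 10.55, 10.59, 10.36 and 10.97 on ATC arrays (difference -3.47, SE 0.53, limma adjusted p = 0.00626). Cyp26a1 had 4.66, 5.33 and 6.57 on recurrent arrays, against 6.66, 7.26, 7.27, 6.19 and 8.18 on ATC arrays, and only recurrent 3 reached the ATC range (difference -1.78, SE 0.34, limma adjusted p = 0.0230).

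Crabp1, which encodes a carrier of retinoic acid inside the cell, belongs to the same list and was named after its values were seen. It read 10.16, 11.74, 10.40, 8.29, 7.54, 4.60, 5.24, 11.30 and 10.52 on recurrent arrays 1 to 9, against 4.42, 4.78, 4.33, 4.10 and 4.16 on ATC arrays 1 to 5. Recurrent 6 lay inside the ATC range and recurrent 7 just above it, while the other 7 recurrent arrays were at least 2 units above every ATC array. The difference of 4.51 (SE 1.09) was not called (limma adjusted p = 0.0811; 0.0779 without recurrent 2). With Lgals7, Omd and Prss35, Crabp1 was 1 of 4 genes in which 4 or more recurrent arrays stood at least 2 units above the ATC range, while 71 genes had 4 or more arrays as far below it.

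Epithelial genes held 2 called members of 28 (7.14%), both lower, against 0.742% of all genes called lower. Without recurrent 2 there were also 2, against 1.29% of all genes. The median difference was -1.40 and 25 of 28 differences were below 0, beside 42.9% of all genes. The list mean was 6.63 to 9.89 on recurrent arrays and 8.23 to 10.14 on ATC arrays, with 6 recurrent arrays below all ATC arrays and recurrent 4, 5 and 6 within their range. Krt7, a keratin of simple epithelia, read 8.42, 5.62, 8.38, 11.73, 11.24, 6.74, 7.02, 9.55 and 10.46 on recurrent arrays 1 to 9, against 13.87, 13.37, 14.10, 12.01 and 13.90 on ATC arrays 1 to 5. Every recurrent array was below ATC, with recurrent 4 only 0.28 below ATC 4 (SE of the difference 0.92, limma adjusted p = 0.0282). Lamb3, a chain of the laminin that anchors epithelium to its basement membrane, had 6.19, 7.09 and 9.88 on recurrent arrays as lowest, median and highest, against 12.58, 11.33, 11.92, 9.76 and 11.16 on ATC arrays. Recurrent 4 passed ATC 4 in Lamb3 (difference -3.77, SE 0.63, limma adjusted p = 0.0111).

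Cdh1 and Epcam, the defining adhesion genes of epithelium, were not called. Epcam read 9.10, 6.48, 6.43, 11.60, 11.38, 13.26, 11.57, 8.16 and 9.09 on recurrent arrays 1 to 9, against 12.76, 12.47, 12.77, 10.57 and 12.81 on ATC arrays 1 to 5. Recurrent 6 exceeded every ATC array, recurrent 2 and 3 were the lowest, and the groups overlapped (difference -2.60, limma adjusted p = 0.364). Cdh1, the gene of E-cadherin, had 6.37, 10.31 and 12.35 on recurrent arrays as lowest, median and highest, against 12.32, 12.50, 12.62, 10.94 and 12.51 on ATC arrays (difference -2.34, limma adjusted p = 0.274).

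Lama3, another chain of that laminin and one of the 12 largest falls, had 5.82, 6.67 and 10.71 on recurrent arrays as lowest, median and highest, against 12.86, 11.54, 13.00, 9.23 and 12.36 on ATC arrays 1 to 5. Recurrent 4 and 7 passed ATC 4, and the call on Lama3 (difference -4.13, SE 0.89, limma adjusted p = 0.0488) was lost with the title series as a block (limma adjusted p = 0.0549) and without recurrent 2 (0.0537). Cldn6, a claudin of embryonic epithelia, had 5.50, 6.27 and 7.70 on recurrent arrays as lowest, median and highest, against 10.75, 10.39, 11.23, 8.30 and 10.93 on ATC arrays 1 to 5. ATC 4 was the lowest ATC array and still above all recurrent arrays (difference -4.03, SE 0.47, limma adjusted p = 0.000754). Prss22, a secreted tryptase-like protease of airway epithelium, had 5.57, 6.48 and 8.80 on recurrent arrays, against 11.83, 10.98, 12.19, 9.67 and 11.76 on ATC arrays (difference -4.48, SE 0.55, limma adjusted p = 0.00138). Ivl, which encodes involucrin of the squamous cell envelope, read 5.37, 7.99, 6.39, 5.15, 5.30, 5.76, 5.02, 5.14 and 5.80 on recurrent arrays 1 to 9, against 9.27, 9.48, 10.96, 8.25 and 9.77 on ATC arrays. Recurrent 2 came within 0.26 of the ATC range of Ivl (difference -3.78, SE 0.49, limma adjusted p = 0.00178). Ivl was the called member of 20 measured squamous and stress keratin genes, with and without recurrent 2, and their median difference was 0.39. Of all genes 0.742% were called lower, and 1.29% without recurrent 2.

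The MAPK output list holds 23 measured genes that ERK activity raises. Its mean lay below ATC on 8 recurrent arrays and above it on recurrent 2. The mean read 8.55, 10.18, 8.86, 8.43, 8.25, 7.70, 8.11, 8.85 and 9.35 on recurrent arrays 1 to 9, against 9.71, 9.60, 9.73, 9.75 and 9.73 on ATC arrays 1 to 5. With all 9 recurrent arrays 1 gene was called, Lif, which is lower (4.35%, against 0.742% of all genes). The median difference was -0.80 and 22 of 23 differences were below 0, beside 42.9% of all genes. Without recurrent 2, limma called 7 of the 23, all lower, against 1.29% of all genes called lower in the same fit, and the median was -1.09. These 7 were Lif (adjusted p = 0.0101), Spry2 (0.0151), Etv4 (0.0172), Ier3 (0.0186), Plaur (0.0258), Egr2 (0.0259) and Dusp6 (0.0349). Recurrent 2 was the highest recurrent array in 15 of the 23 genes, and in 15.8% of all genes. It was above every ATC array in 10 of the 23, and in 3967 of all 12393 genes.

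Dusp6, the ERK phosphatase, read 11.36, 11.72, 10.56, 10.41, 10.68, 9.97, 10.43, 11.28 and 11.84 on recurrent arrays 1 to 9, against 11.95, 11.81, 12.66, 12.25 and 12.23 on ATC arrays 1 to 5. Recurrent 9 overlapped ATC 2 and the other 8 were below ATC (difference -1.26, SE 0.30, limma adjusted p = 0.0786). Spry2, a Sprouty inhibitor of receptor signalling named after its values were seen, read 7.28, 9.55, 7.23, 7.63, 7.81, 7.62, 6.41, 7.95 and 8.25 on recurrent arrays 1 to 9, against 8.66, 9.09, 9.04, 9.12 and 9.0 on ATC arrays. Recurrent 2 was above every ATC array and the other 8 were below every one (difference -1.23, limma adjusted p = 0.191). Lif, a cytokine of the interleukin-6 family, had 6.12, 7.11 and 8.48 on recurrent arrays as lowest, median and highest, against 9.70, 9.32, 10.18, 8.84 and 9.41 on ATC arrays. Lif was lower on all 9 recurrent arrays, recurrent 2 included (difference -2.21, SE 0.38, limma adjusted p = 0.0120), and a further probe set gave -0.30.

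The 18 AP-1 and immediate early genes, transcription factors that answer growth signals within minutes, showed the same outlying array. Their mean was 10.04 on recurrent 2 and 8.46 to 9.18 on the other 8 recurrent arrays, against 9.25 to 9.69 on ATC arrays. Limma called 0 of them with all arrays (8 at an unadjusted p under 0.05, beside 1332 of all 12393 genes). Without recurrent 2 it called 3 lower, where 1.29% of all genes were called lower. The median difference was -0.44 with recurrent 2 and -0.63 without it. Recurrent 2 was the highest recurrent array in 10 of the 18, and in 15.8% of all genes.

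**Figure D3:**
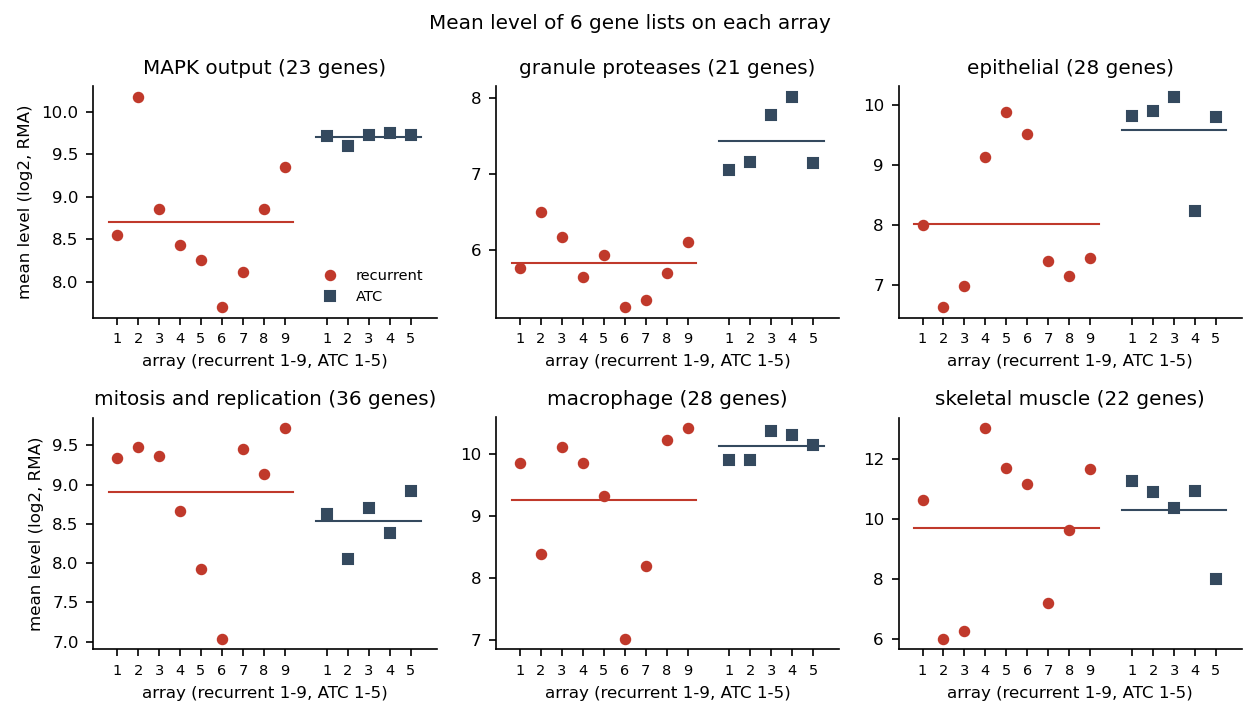
Mean level of 6 gene lists (log2, y axis) on each array (x axis), with recurrent arrays as red circles on the left, ATC arrays as dark squares on the right and the group mean as a line. Recurrent 2 stands above ATC in MAPK output at 10.18 while the other 8 recurrent arrays stand below it, and all 9 recurrent arrays stand below ATC in granule proteases.

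Promoters of the genes called lower were searched for 9 motifs on both strands, over 250 bases before to 50 after the RefSeq start, in 66 genes that had a promoter sequence and in 9887 measured genes. The AP-1 motif TGACTCA stood in 10.6% of the 66 and 5.64% of all, and its 7 carriers were Glrp1, Il1a, Itgax, Ivl, Lif, Ltbp3 and Slamf8. The ETS motif CCGGAAGT stood in 0 of the 66 and 7.23% of all. The E-box CACGTG stood in 7.58% of the 66 and 10.8% of all, the TATA box TATAAA in 18.2% of the 66 and 11.9% of all, and ACAAAG, read by SOX factors, in 30.3% of the 66 and 17.8% of all. A consensus NF-kappa B site stood in 1 of the 66 (1.52%) and 0.233% of all. The GLI motif GACCACCCA (0.192% of all), its part GACCACCC (1.03%) and a consensus SRF site (0.0202%) stood in 0 of the 66. These are matches of letters and were not tested.

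Cytokine and immune genes were called in small numbers. The list named for the interleukin-6 family also holds its signal genes and the interleukin-1 genes Il1a and Il1b. Of its 15 measured genes 2 were called lower (13.3%, against 0.742% of all genes), Lif of the interleukin-6 family and Il1a of the interleukin-1 family. Without recurrent 2, 3 were called lower, against 1.29% of all genes. Il1a, an alarm cytokine of epithelium, had 3.99, 4.68 and 5.34 on recurrent arrays as lowest, median and highest, against 6.10, 5.57, 6.82, 7.15 and 7.15 on ATC arrays 1 to 5 (difference -1.86, SE 0.31, limma adjusted p = 0.0118). Itgax, the CD11c integrin of dendritic cells and macrophages, had 5.66, 6.63 and 8.45 on recurrent arrays, against 8.98, 9.08, 8.92, 9.87 and 9.84 on ATC arrays. All recurrent arrays were below ATC, recurrent 9 the least so (difference -2.53, SE 0.42, limma adjusted p = 0.0101). Itgax was the called member of 28 measured macrophage genes (3.57%), with and without recurrent 2, against 0.742% and 1.29% of all genes called lower. The median difference of the 28 was -0.85, with 25 below 0, beside 42.9% of all genes. The macrophage mean was 7.02 to 10.42 on recurrent arrays and 9.90 to 10.38 on ATC arrays, lowest on recurrent 6 (7.02), 7 (8.19) and 2 (8.39), and the part of macrophage content in the Itgax and Adamdec1 results was not tested. Tgfb1, the gene of a cytokine that restrains immunity and drives matrix, had 6.89, 7.97 and 8.48 on recurrent arrays, against 9.09, 8.91, 9.26, 9.84 and 9.30 on ATC arrays, with no overlap (difference -1.53, SE 0.30, limma adjusted p = 0.0282). It was the called member of 21 TGF-beta and activin genes, beside 0.742% of all genes called lower. Without recurrent 2, 3 of the 21 were called lower, against 1.29% of all genes.

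Signals of nerve and endocrine type gave 2 called members of 16 in the C-cell and neuroendocrine list (12.5%), both lower with and without recurrent 2, Npy and Snap25. Of all genes 0.742% were called lower, and 1.29% without recurrent 2. Snap25, a protein of vesicle release, read 7.16, 6.30, 6.78, 6.53, 4.28, 3.74, 3.73, 3.88 and 3.99 on recurrent arrays 1 to 9, against 7.20, 8.54, 9.12, 9.34 and 9.20 on ATC arrays 1 to 5. Recurrent 1 came within 0.04 of ATC 1, and recurrent 5 to 9 were the lowest. The difference in Snap25 was -3.53 (SE 0.68, limma adjusted p = 0.0247), with -1.13 within the JK titles and -4.86 within the bare-number titles. Dhh, a hedgehog ligand known from Schwann cells and testis, had 5.06, 5.72 and 6.0 on recurrent arrays, against 7.24, 7.50, 6.75, 8.31 and 6.82 on ATC arrays (difference -1.71, SE 0.26, limma adjusted p = 0.00631), and a further probe set gave -0.20.

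The 7 genes called higher in recurrent tumours differed by 0.71 to 1.51, and their calls rested on single arrays. Limma called 0 of the 7 without ATC 5 or within the bare-number titles, 1 without ATC 1 (Dnajc9), 1 without ATC 2 and 1 without ATC 3 (Car13 in both), and 2 without recurrent 1, while all 7 were called without recurrent 2. Car13, a carbonic anhydrase, had 7.58, 8.53 and 9.50 on recurrent arrays as lowest, median and highest, against 6.25, 7.21, 7.56, 7.19 and 6.79 on ATC arrays 1 to 5. Recurrent 9 was just above ATC 3 and the groups did not overlap (difference 1.51, SE 0.29, limma adjusted p = 0.0239). Dnajc9, a chaperone of histones, had 8.77, 9.32 and 9.61 on recurrent arrays, against 8.61, 8.36, 8.56, 8.26 and 8.59 on ATC arrays (difference 0.82, SE 0.15, limma adjusted p = 0.0202). Hdac5, a histone deacetylase, Dnph1, an enzyme that clears modified nucleotides, and Suclg2, a subunit of a mitochondrial enzyme of the citric acid cycle, also had all 9 recurrent arrays above ATC, with differences of 0.78, 0.83 and 0.71. Gkap1, an anchor protein of a cGMP-dependent kinase, differed by 1.04 (SE 0.20, limma adjusted p = 0.0257), with recurrent 7 inside the ATC range. Tex9 differed by 1.24 (SE 0.25, limma adjusted p = 0.0345), and its other probe sets gave -0.01 and 0.31.

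Growth genes did not follow the calls. Mki67, a marker of dividing cells, read 10.98, 10.26, 12.37, 10.27, 9.10, 7.91, 11.08, 10.46 and 10.95 on recurrent arrays 1 to 9, against 10.09, 9.63, 10.15, 9.82 and 10.27 on ATC arrays 1 to 5. Recurrent 3 was the highest, recurrent 5 and 6 were below ATC, and the difference of 0.38 was not called (limma adjusted p = 0.863). Among the recurrent arrays, recurrent 3 was the highest in 24.2% of all genes. The 36 mitosis and replication genes had a median difference of 0.38, 4 differences below 0 and 0 limma calls (2 at an unadjusted p under 0.05). Their mean was above all ATC arrays on 6 recurrent arrays and below all on recurrent 5 and 6. The 21 respiratory chain genes had a median of 0.29, 0 differences below 0 and 0 limma calls (1 at an unadjusted p under 0.05). Over all genes, 1332 of 12393 had an unadjusted p under 0.05 and 42.9% had a difference below 0.

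Changes carried by a few arrays were counted next. A gene was put in this class where 1 to 3 recurrent arrays lay at least 2 units beyond the ATC range and the others less than 1 beyond it. There were 577 such genes upward (4.66% of all) and 279 downward (2.25%), of which 517 and 221 came from a single array. Limma called 0 of them (9 upward and 12 downward at an unadjusted p under 0.05, beside 1332 of all 12393 genes). The rule of this class picks genes with a wide spread among recurrent arrays, so few calls follow from the selection itself. The distance of 2 divides a continuous range. At a distance of 3 there were 188 upward and 34 downward, so the downward class outnumbered the 85 shared lower genes at a distance of 2 and not at 3. Of the upward genes 221 lay between 2 and 2.5, and 683 genes had their largest upward distance between 1.5 and 2. Recurrent 6 carried 221 genes upward and 150 downward, recurrent 5 carried 122 and 7, recurrent 7 carried 121 and 54, recurrent 4 carried 76 and 1, and recurrent 2 carried 63 and 68. Recurrent 3 carried 15 upward and 75 downward, and recurrent 1, 8 and 9 carried 7 to 12 upward and 0 to 2 downward. ATC was described by a different count, which set each ATC array against the other 4 of its own group. A single ATC array stood at least 2 above the other 4 in 4 to 61 genes and at least 2 below them in 0 to 44. Recurrent arrays were not set against their own group, so these counts cannot be compared with those above. The genes described for single arrays below were ranked by these distances, so their values are a description with no test.

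**Figure D4:**
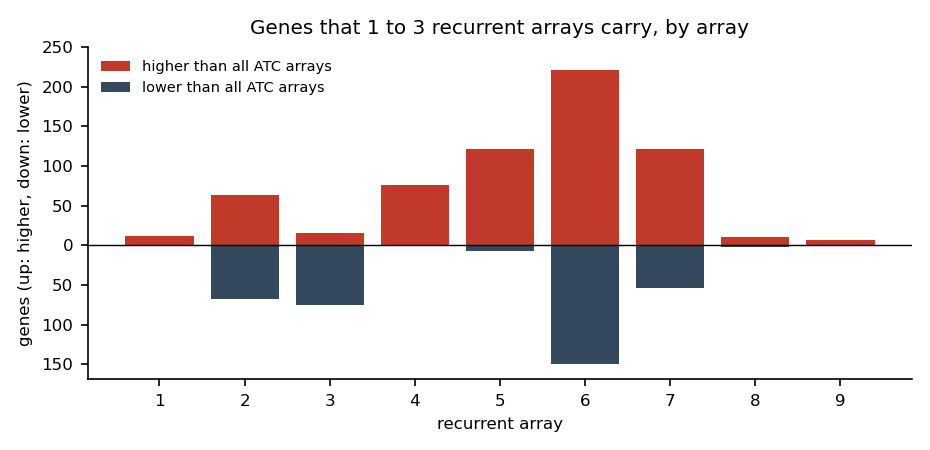
Number of genes (y axis) that 1 to 3 recurrent arrays carried at least 2 log2 units above (red, upward) or below (dark, downward) the range of the 5 ATC arrays, for each recurrent array (x axis). Recurrent 6 carries the most, with 221 upward and 150 downward, and recurrent 9 the fewest upward, with 7.

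Recurrent 6 carried genes of lipid handling. Mogat1, an acyltransferase that makes diglycerides, read 14.26 on recurrent 6, 4.02 to 4.71 on the other 8 recurrent arrays and 4.10 to 4.65 on ATC arrays. Scd3, a fatty acid desaturase of sebaceous glands, read 14.66 on recurrent 6, 4.52 to 5.32 on the other 8 and 4.67 to 5.96 on ATC arrays. Elovl3, a fatty acid elongase, read 13.99 on recurrent 6 and 7.60 on recurrent 1, and 4.33 to 4.83 on ATC arrays. Aadac, a lipid-splitting enzyme, Cyp2b19, a cytochrome of skin, and Cers4, a ceramide synthase, exceeded the highest ATC array on recurrent 6 by 8.95, 8.43 and 6.22. The mean of 17 genes of cholesterol and fatty acid synthesis was 11.74 on recurrent 6 and 8.84 to 9.90 on the other 8 recurrent arrays, against 8.94 to 9.55 on ATC arrays. In the other direction Sox2, a stem cell and foregut transcription factor, read 3.65 on recurrent 6, 8.58 to 11.31 on the other 8 and 9.01 to 11.26 on ATC arrays.

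Recurrent 7 carried the hedgehog pathway and cartilage. Hedgehog ligands relieve the block that the receptor Ptch1 puts on the pathway, which then acts through the Gli factors and raises Gli1, Ptch1 and Hhip as feedback. Gli1 read 12.54 on recurrent 7, 5.57 to 6.19 on the other 8 recurrent arrays and 5.80 to 6.39 on ATC arrays. Hhip, which traps the ligands, read 11.76 on recurrent 7, 4.14 to 5.07 on the other 8 and 4.18 to 4.34 on ATC arrays. Ptch1, named after its values were seen, read 13.94 on recurrent 7, 8.58 to 9.80 on the other 8 and 9.04 to 9.32 on ATC arrays. Igf2, a fetal growth factor also named after its values were seen, read 14.73 on recurrent 7, 7.43 to 9.79 on the other 8 and 7.54 to 8.51 on ATC arrays. Cartilage genes averaged 10.29 on recurrent 7, 8.21 on recurrent 5 and 5.33 to 6.28 on the other 7 recurrent arrays, against 5.28 to 6.05 on ATC arrays. Col9a1, a cartilage collagen, read 13.22 on recurrent 7 and 9.55 on recurrent 5, and 4.47 to 6.91 on ATC arrays.

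Recurrent 5 carried genes of the outer skin. Hrnr, a protein of the cornified layer, read 11.15 on recurrent 5 and 7.89 on recurrent 1, and 2.91 to 4.72 on ATC arrays. On recurrent 5 and 6 the Y-linked Eif2s3y read 10.09 and 10.07 and Xist, expressed from the inactive X, read 5.59 and 6.19. On the other 7 recurrent arrays Eif2s3y read 3.16 to 3.35 and Xist 12.05 to 13.63, and on ATC arrays Eif2s3y read 3.03 to 3.40 and Xist 12.70 to 13.08. Pth, the parathyroid hormone gene, named after its values were seen, read 14.76 on recurrent 4 and 14.58 on recurrent 5, and 3.86 to 4.91 on the other 7. On ATC arrays 1 to 5 Pth read 14.20, 11.44, 4.27, 4.37 and 5.62, so parathyroid RNA was present on arrays of both groups.

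Pcp4, a calmodulin-binding protein of neurons, read 12.93 on recurrent 7 and 4.8 to 5.82 on ATC arrays. Snorc, a cartilage proteoglycan, read 12.03 on recurrent 7 and 8.06 on recurrent 5, and 4.73 to 5.22 on ATC arrays. Rhox5, an X-linked homeobox gene, read 12.24 on recurrent 7 and 8.77 on recurrent 2, and 5.52 to 5.60 on ATC arrays. Rpl39l, a relative of a ribosomal protein, read 12.68 on recurrent 2, 12.51 on recurrent 7 and 10.37 on recurrent 8, and 5.21 to 5.63 on ATC arrays. Aox4, an aldehyde oxidase, read 12.81 on recurrent 6, 10.19 on recurrent 5 and 7.73 on recurrent 1, and 3.77 to 5.55 on ATC arrays.

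Downward, Mgp, an inhibitor of calcification, read 6.56 on recurrent 2, 12.77 to 14.38 on the other 8 recurrent arrays and 13.32 to 14.40 on ATC arrays. Ccl6, a chemokine of myeloid cells, read 8.0 on recurrent 6 and 8.47 on recurrent 7, 11.86 to 13.30 on the other 7 and 12.80 to 13.49 on ATC arrays. Slc14a1, a urea transporter, read 5.70 on recurrent 4, 4.72 on recurrent 5 and 3.91 on recurrent 6, and 8.42 to 10.89 on ATC arrays. Each of these genes was low on its own set of recurrent arrays.

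Muscle genes marked further arrays. The 22 skeletal muscle genes averaged 10.61, 6.0, 6.26, 13.02, 11.68, 11.17, 7.18, 9.62 and 11.64 on recurrent arrays 1 to 9, against 11.25, 10.89, 10.36, 10.93 and 7.99 on ATC arrays 1 to 5. Recurrent 2, 3 and 7 lay below all ATC arrays. Limma called 0 of the 22 (0 at an unadjusted p under 0.05, beside 1332 of all 12393 genes). Tnnc2, a troponin of fast muscle, read 5.50 on recurrent 2, 5.56 on recurrent 3 and 7.73 on recurrent 7, and 10.21 to 13.47 on ATC arrays. Mb, the gene of myoglobin, was low on the same arrays, at 5.88 on recurrent 2, 7.06 on recurrent 3 and 7.61 on recurrent 7, against 10.20 to 12.51 on ATC arrays. Car3, a carbonic anhydrase of muscle and fat, read 5.08 on recurrent 2 and 6.28 on recurrent 3, and 10.71 to 13.29 on ATC arrays. Recurrent 3 also had the largest difference between 3' and 5' Gapdh signal (1.07) and the smallest SD of values (2.23) of the 14 arrays. The part of muscle content in the genes that recurrent 2 and 3 carried downward was not tested, nor was that of RNA integrity on recurrent 3.

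Neighbouring genes moved together on single arrays. Along the RefSeq order of genes, runs were sought in which at least 4 of 5 consecutive measured genes lay at least 1 unit beyond the ATC range on the same array. Recurrent arrays had 28 such runs upward and 17 downward, while ATC arrays, each set against the other 4, had 2 upward and 1 downward. These counts are not a like comparison, since the recurrent arrays were more and were set against another group, and each ATC array against its own. Only 3 upward runs had 15 or more genes, on recurrent 2, 5 and 7. Array values read RNA, and copy number was not analysed here.

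Recurrent 1 and 8 shared a run around Met on chromosome 6, made of Tes, Cav2, Cav1, Met and Capza2. On recurrent 1 these exceeded the highest ATC array by 1.32 in Tes, 0.84 in Cav2, 2.07 in Cav1, 1.95 in Met and 1.30 in Capza2. On recurrent 8 the excesses were 1.43 in Tes, 0.84 in Cav2, 2.22 in Cav1, 1.92 in Met and 1.20 in Capza2. Cav1 and Cav2 encode the caveolins of membrane pits, Tes a focal adhesion protein and Capza2 a subunit that caps actin filaments. The 5 measured genes on each side of the run did not reach 1 unit above ATC on these arrays. Recurrent 6, next in Met after these, had no such excess in Tes (-2.77), Cav1 (-0.86) or Capza2 (-0.79).

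A run of 19 measured genes on chromosome 6, from Thumpd3 through Mtmr14, Ogg1 and Vhl to Sec13, was high on recurrent 2. In it 16 genes lay at least 1 above ATC, with a median excess of 2.30 and the largest, 4.33, in Ttll3, a tubulin-modifying enzyme. Camk1, a calcium-dependent kinase, read 12.87 on recurrent 2, 7.95 to 8.91 on the other 8 recurrent arrays and 8.23 to 9.06 on ATC arrays. Vhl, which marks hypoxia-inducible factors for destruction, read 7.84 on recurrent 2, 5.29 to 6.22 on the other 8 and 5.15 to 5.96 on ATC arrays. The 22 genes of hypoxia and glycolysis averaged 10.98 on recurrent 2, the highest of all 14 arrays, 9.14 to 10.79 on the other 8 recurrent arrays and 9.19 to 10.05 on ATC arrays. A second run on recurrent 2, on chromosome 9, held the matrix metalloprotease genes Mmp1b, Mmp3, Mmp1a, Mmp10 and Mmp8, with a median excess of 2.77.

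The run on recurrent 7 covered 19 measured genes on chromosome 10, from Ctdsp2 through Cdk4 and Ddit3 to Gli1. Of these, 15 lay at least 1 above ATC, with a median excess of 2.32 and the largest, 6.14, in Gli1. Cdk4, a kinase that drives the cell cycle out of G1, read 13.56 on recurrent 7, 9.63 to 11.53 on the other 8 recurrent arrays and 10.28 to 11.03 on ATC arrays. Ddit3, a stress transcription factor, read 11.87 on recurrent 7, 7.59 to 10.26 on the other 8 and 7.57 to 8.78 on ATC arrays. Agap2, within the run, stayed inside the range of ATC at 5.44.

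On recurrent 5 a run of 15 cornified envelope genes on chromosome 3, from Lce1a1 to Hrnr, was high, with a median excess of 3.26. Part of it was also high on recurrent 1, in a run of 5 genes. ATC 2 held runs of 8 and 5 genes at the same place when set against the other 4 ATC arrays, so this cluster rose on single arrays of both groups. Downward runs included immune gene clusters on recurrent 6 and 7. A run with Fcgr2b, Fcgr4 and Fcgr3, the antibody receptors of myeloid cells, was low on both arrays, with median deficits of 3.16 on recurrent 6 and 2.40 on recurrent 7. On recurrent 7 a cluster of chemokine and EGF-family ligand genes, Cxcl1, Cxcl2, Epgn, Ereg and Btc, had a median deficit of 3.48.

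**Figure D5:**
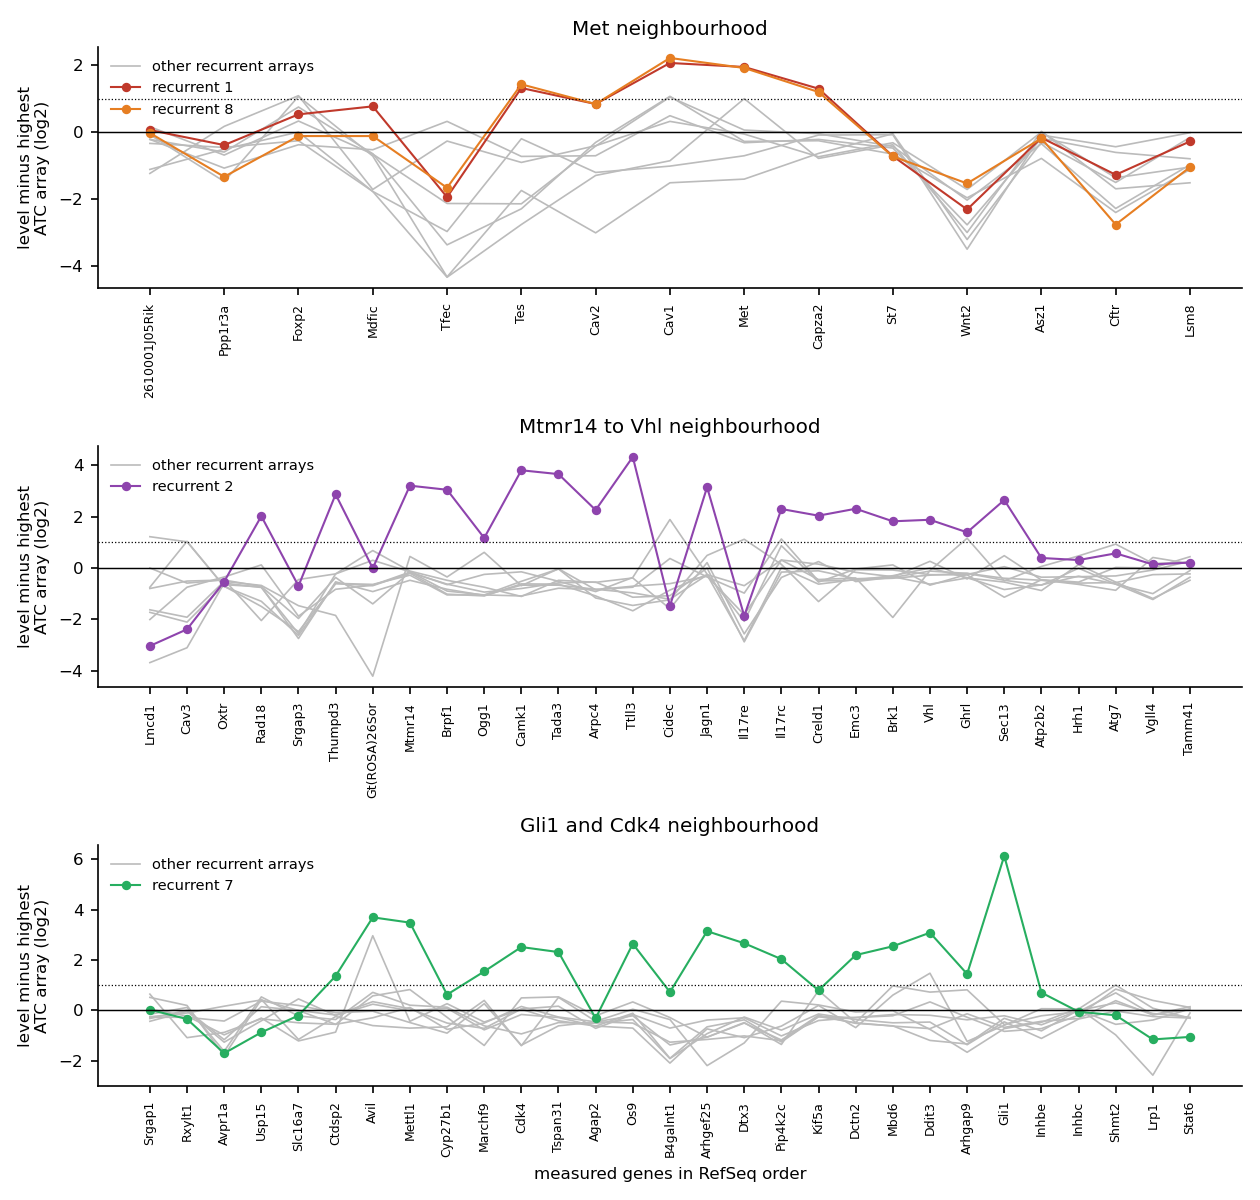
Level of each gene minus the highest ATC array (log2, y axis) along the order of measured genes (x axis) in the neighbourhoods of Met, of Mtmr14 to Vhl and of Gli1 and Cdk4, with the named arrays coloured, the other recurrent arrays grey and a dotted line at 1. Recurrent 1 and 8 rise over 5 genes around Met, recurrent 2 exceeds 1 in 16 of 19 genes that include Vhl, and recurrent 7 in 15 of 19 genes that end at Gli1.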

How the data were processed

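The deposited values were log2 expression per probe set, which the authors obtained by RMA in Partek, per the submitters' processing notes, with no version stated there. RMA corrects background, normalizes by quantiles and sums up probes. Quantile normalization gives all arrays nearly one distribution (medians 7.38 to 7.58), so a shift common to most genes cannot be seen. The number of arrays limits the precision.

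Among 22690 probe sets, 1 gene symbol was given for 20393, several for 691 and none for 1606. The gene table renewed 20364 of the symbols and 29 stayed as deposited. Control probe sets were left out, and each gene was read by its brightest probe set, judged by the mean of the 24 arrays, giving 12393 genes, 12367 with a place in the RefSeq order. There were 0 unused columns of sample values. No 2 of the 14 arrays were identical (highest correlation 0.98).

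The 9 recurrent and 5 ATC arrays were fitted alone with limma's lmFit and eBayes, and p-values were adjusted by Benjamini-Hochberg over all genes, with a call at an adjusted p under 0.05. On simulated data of 12393 genes with 200 changed, the recurrent minus ATC fit recovered 37% of 2-fold and 89% of 4-fold changes, with 3.1% unchanged genes among its calls. Genes were named from a rule, and the text gives values for only a part of the run members it holds: the 12 called genes that rose most and the 12 that fell most, and among these the shared ones, the 15 upward and 8 downward genes with the largest distance among those that 1 to 3 arrays carried, up to 4 called members of each list, members of the long runs and of the run around Met, and Braf, Met, Hgf, Tg, Dusp6 and Mki67. Any other gene named was chosen after its values were seen. The members and lists were chosen with earlier results of these data known. Alternatives were other samples, blocks, filters, weights and normalizations, and each array left out in turn.

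Python 3.11.15 with pandas 2.3.3, NumPy 2.4.6, SciPy 1.17.1 and matplotlib 3.10.9, and R 4.3.3 with limma 3.58.1, were used.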

Additional observations from a re-analysis of the deposited data

Results flagged for a closer look

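The lowest and highest arrays of each group were compared with the nearest other array for 47 named genes, in 94 groups of arrays, and 15 groups held an array that stood apart from the rest by Dixon's criterion. Chance gives about 1 in 20 for independent genes picked in advance, a rate that does not hold here. These genes were picked from the same data, partly for outlying arrays, and neighbouring genes on 1 array are not independent.

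On recurrent arrays, Braf on recurrent 2 (11.14), Ivl on recurrent 2 (7.99), Gzmd on recurrent 9 (5.94), Cyp26a1 on recurrent 3 (6.57) and Lce1g on recurrent 5 (5.96) stood above the other recurrent arrays.

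On ATC arrays, ATC 4 stood below the others in Cldn6 (8.30) and above them in Tg (13.48), and ATC 1 stood below them in Abcb1a (10.98). ATC 2 stood above the other ATC arrays in cornified envelope genes of chromosome 3. These were Lce3a (11.73), Lce3c (11.59), Crct1 (10.80), Lce1a1 (8.57), Lce1b (7.61), Lce1d (7.57) and 2310050C09Rik (3.96).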

How the results depend on the processing

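The count of 99 called genes was 535 in a fit of all 24 arrays, 0 within the JK titles, 18 within the bare-number titles, 65 without the dimmest 30% of genes, 228 with array weights per group, 922 with array weights per array and 271 without recurrent 2 and 3, a setting chosen after seeing the data. Leaving out each array in turn gave 38 to 180, and the other settings gave 88 to 117. Genes shared by all recurrent arrays numbered 85 lower and 25 higher. These were 1558 and 1804 within the JK titles, 453 and 338 within the bare-number titles, and 131 and 41 with every probe set on its own, where the fewer arrays or the more probe sets compared set the count. Asking for 8 or 9 of 9 arrays, also chosen after seeing the data, gave 320 lower and 150 higher. Leaving out an array gave 92 to 187 lower and 27 to 84 higher. Genes carried by a few arrays numbered 279 lower and 577 higher. There were 185 lower with the mean of probe sets and 345 higher without the dimmest genes. A distance of 1.5 gave 724 lower and 1177 higher, a distance of 3 gave 34 lower and 188 higher, and leaving out an array gave 207 to 323 lower and 401 to 610 higher. The Braf difference ran from -5.12 to -4.40 when an array was left out, and was -3.81 and no longer called within the JK titles. With an array left out, Met differed by 0.56 to 0.98 and Hgf by 0.48 to 0.82. No called difference of a gene named by the rule changed sign in the alternative fits with 1 value per gene. Of the 10 such genes with another probe set, 1 had the opposite sign there, Tex9 at -0.01. A further probe set of Itgb1, described below, also had the opposite sign. The balance of counts turned. Shared genes were mostly lower in the 14 arrays and more often higher within the JK titles, and shared lower genes outnumbered lower genes carried by a few arrays within the bare-number titles (453 against 315) and with 8 or 9 of 9 arrays (320 against 279). No paired analysis was possible because the replicate numbers follow accession order and pair no arrays. With 9 and 5 arrays, the simulated fit recovered 37% of 2-fold changes.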

Other observations

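Genes of cell adhesion and hyaluronan outside the lists above were also among those called, and were chosen after their values were seen. Has2, a second hyaluronan synthase, had 6.07, 7.51 and 9.04 on recurrent arrays as lowest, median and highest, against 9.92, 8.84, 9.84, 10.58 and 11.48 on ATC arrays 1 to 5 (difference -2.68, SE 0.52, limma adjusted p = 0.0257). Itgb1, the beta chain shared by many matrix receptors, had 10.72, 11.57 and 12.08 on recurrent arrays, against 12.73, 12.20, 12.61, 12.54 and 12.87 on ATC arrays, with no overlap (difference -1.04, SE 0.21, limma adjusted p = 0.0338). Its other probe sets gave -1.21 to 0.13. Lama5 and Lama1, laminin chains of basement membranes, differed by -1.86 (limma adjusted p = 0.0135) and -1.28 (0.0495).

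Further immune genes were called lower and were likewise chosen after their values were seen, with no list behind them. Ccl24, an eosinophil chemokine, had 6.16, 6.92 and 7.83 on recurrent arrays, against 8.11, 8.86, 10.77, 9.11 and 9.51 on ATC arrays (difference -2.34, SE 0.40, limma adjusted p = 0.0118). Siglecf, a surface lectin of eosinophils and alveolar macrophages, differed by -2.42 (SE 0.49, limma adjusted p = 0.0320). Csf2, which encodes GM-CSF, read 10.09 on recurrent 2 and had a median of 5.53 over all recurrent arrays, against 9.63 to 10.98 on the 5 ATC arrays, so that recurrent 2 lay inside the ATC range (difference -3.85, SE 0.80, limma adjusted p = 0.0361).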
